A study of Mus musculus with 6 samples.

Results

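The developmental pluripotency associated genes Dppa2, Dppa3, Dppa4 and Dppa5a were followed in fetal ovaries of E15.5 mouse embryos. The members were all probe sets whose platform annotation names exactly 1 of these 4 symbols, out of 18193 genes that have a probe set of their own on the array. There are 5 such probe sets, 2 for Dppa2 and 1 for each of the others. The genes were chosen with their difference between the genotypes in view, so that difference is described below and not tested.

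Samples came from 2 groups, 3 arrays of ovaries with a Dmrt1 knockout and 3 arrays of wild-type ovaries, all of the same embryonic age. Dmrt1 encodes a DM domain transcription factor of germ cells and gonads. The labels do not name a Cre driver, the strain or the number of animals behind an array. They number replicates but do not call them separate animals. The p-values below set the difference between groups against the spread within groups, and that spread may be technical.

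The Dppa genes are named for the early embryo and are not a single protein family. Dppa2 and Dppa4 are SAP domain proteins that bind chromatin together in pluripotent cells, where they help to keep developmental promoters open to activation. Dppa3, also called Stella or PGC7, marks primordial germ cells and oocytes and counters maintenance DNA methylation by binding Uhrf1. Dppa5a, also called Esg1, is a KH domain RNA-binding protein of embryonic stem cells and early germ cells. In the mouse fetal ovary, germ cells normally shut down much of this early program as they enter meiosis.

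Each value is the intensity of a probe set, deposited on a linear scale after GCRMA, and differences are given in log2 units as knockout minus wild type. Standard errors (SE) come from limma and rest on 3 arrays per group. A probe set was tested, where tests apply, if at least 3 of the 6 arrays reached log2 4, an intensity of 16. GCRMA pulls dim probe sets towards a floor, and differences under that level carry little meaning. Of the 5 member probe sets, 4 passed this filter, 1 for each gene. Dppa2 passed through the knockout arrays alone, so its passing is itself a product of the difference.

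Some features of the arrays bear on every result below. Knockout replicate 1 stands apart: Xist, the RNA that silences an X chromosome in female cells, averaged log2 1.81 there, against 9.75 and 9.85 on the other knockout arrays and 10.7 to 10.9 in wild type. Genes of the Y chromosome (Eif2s3y, Kdm5d, Uty) had a mean of log2 1.70 to 1.75 on knockout arrays and 1.63 to 1.81 on wild-type arrays, near the floor on all 6. The Dmrt1 probe set was also near the floor, at log2 2.58 to 3.10 on knockout arrays and 3.08 to 3.70 on wild-type arrays. Where it lies with respect to the deletion is unknown, so it does not check the genotype labels. Markers of the labelled tissue were present on all arrays: the 10 pregranulosa and ovary markers summed to intensities of 13863 to 15326 on knockout arrays and 12628 to 13208 on wild-type arrays. The 8 testis markers with a probe set summed to 853 to 1108 on knockout arrays and 965 to 1011 on wild-type arrays. Most of this sum came from Hsd3b1, at log2 9.64 to 10.01 on knockout arrays and 9.82 to 9.87 on wild-type arrays. No other testis marker read above log2 4.94, the value of Cyp17a1 on knockout replicate 3. Amh, Eif2s3y, Kdm5d and Uty were under log2 4 on all arrays. The testis sum thus mostly follows Hsd3b1 and says little about the other testis markers. The ovary marker sums did not overlap, with knockout above wild type, and their part in the results was not tested. No single ovary or testis marker passed the test described below. Of 10 tested ovary markers 3 had an unadjusted p under 0.05, and the share of all tested genes at that level was not computed. These 3 were Irx5 (0.72 ± 0.20 log2 units, SE), Nr0b1 (0.58 ± 0.22) and Amhr2 (0.25 ± 0.10), at limma adjusted p = 0.06, 0.162 and 0.172. The median difference over the 10 was 0.24. Of the 10, 8 were above 0, while Foxl2 (-0.26 ± 0.27) and Wnt4 (-0.08 ± 0.22) were below it. Dimmer Amhr2 probe sets differed by 0.44 ± 0.13 (limma adjusted p = 0.084) and -0.06 ± 0.19 (limma adjusted p = 0.906). Irx5 and Amhr2 passed with median centring of the arrays. Of 3 tested testis markers, Sox9 (-0.43 ± 0.18), Cyp17a1 (0.21 ± 0.26) and Hsd3b1 (-0.04 ± 0.13), 1 had an unadjusted p under 0.05, and their median was -0.04. Because of the array without Xist signal, results are also given without knockout replicate 1.

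Dppa2 was close to the floor in wild type and well above it in knockout. Its brighter probe set had intensities of 551, 120 and 52.5 on knockout replicates 1, 2 and 3, against 10.3, 8.66 and 8.56 on wild-type replicates 1, 2 and 3. Every knockout array was above every wild-type array, with 2.35 log2 units between the lowest knockout and the highest wild-type value. The mean was log2 7.24 ± 1.72 in knockout and 3.19 ± 0.15 in wild type (SD, n = 3 each). Since all 3 wild-type arrays lay under log2 4, the fold is given against that level, as at least 9.46-fold higher in knockout.

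The other Dppa2 probe set showed no such difference. Its intensities were 5.92, 2.49 and 2.2 on the knockout arrays and 2.44, 2.43 and 2.23 on the wild-type arrays, under the filter level on all 6 arrays. Only knockout replicate 1 was above the wild-type range, and the groups overlapped. Both probe sets carry the same accession in the annotation, and the suffix of the brighter probe set marks a kind that can match several transcripts. Which of the probe sets reads the Dppa2 transcript better was not tested.

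Dppa3 was near the floor in wild type and bright in knockout. Its intensities were 1182, 197 and 76.8 on knockout replicates 1, 2 and 3, against 12.2, 12.1 and 18.8 on wild-type replicates 1, 2 and 3. The groups did not overlap, and 2.03 log2 units separated the lowest knockout array from the highest wild-type array. The mean was log2 8.03 ± 2.0 in knockout and 3.81 ± 0.36 in wild type (SD, n = 3 each), a difference of 4.22. With the 2 wild-type arrays under log2 4 set at that level, the fold was 15.49. The gene table also lists a pseudogene, Dppa3-ps, and whether the probe set reads it was not tested.

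Dppa4, the partner of Dppa2, differed less than Dppa2. Its intensities were 171, 51.1 and 44.1 on knockout replicates 1, 2 and 3, against 21.9, 14.3 and 16.4 on wild-type replicates 1, 2 and 3. The groups did not overlap, by a gap of 1.01 log2 units. The mean was log2 6.18 ± 1.07 in knockout and 4.11 ± 0.31 in wild type (SD, n = 3 each), a difference of 2.07, and the fold was 4.06 with the 1 wild-type array under log2 4 set at that level.

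Dppa5a was the only member well above the floor on every array of both groups. Its intensities were 3643, 1402 and 1259 on knockout replicates 1, 2 and 3, against 379, 640 and 506 on wild-type replicates 1, 2 and 3. The gap between the groups was 0.98 log2 units, and no array overlapped. The mean was log2 10.86 ± 0.84 in knockout and 8.96 ± 0.38 in wild type (SD, n = 3 each), a 3.74-fold difference that no floor touches. The gene table lists the pseudogenes Dppa5b and Dppa5c on the same chromosome, and whether this probe set can tell them from Dppa5a was not tested.

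**Figure D1:**
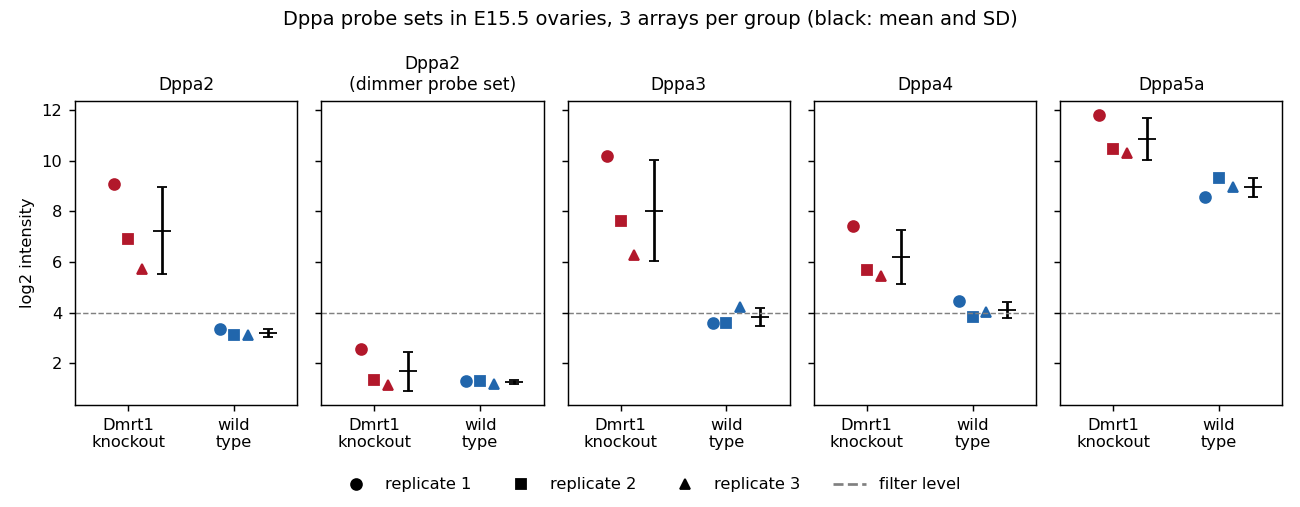
Log2 intensity (vertical axis) of the 5 Dppa probe sets on each array, with Dmrt1 knockout in red and wild type in blue, a marker shape for each replicate, and black bars for the mean and SD of 3 arrays. The 3 knockout arrays lie above the 3 wild-type arrays for 1 probe set of each gene, while the dimmer Dppa2 probe set stays under the filter level of log2 4 (dashed line) on all 6 arrays.

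Through the brighter probe set of each gene, all 4 members had knockout arrays that lay wholly above the wild-type arrays. Of 11897 tested genes, each counted by its probe set of highest mean, 12.3% did so in that direction. The members were selected on this contrast, so nothing is read from their count. Ranked among those 11897 genes by the difference with values under log2 4 set to 4, Dppa3 was number 3, Dppa2 number 7, Dppa4 number 17 and Dppa5a number 22. On the values as deposited the ranks were 3, 4, 22 and 27. Differences of at least 2 log2 units towards knockout were found in 0.193% of tested genes, and of at least 1 unit in 0.614%.

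The knockout arrays differed widely among themselves, and in the same order for each member. All 4 genes were highest on knockout replicate 1 and lowest on knockout replicate 3, an order seen in 13.7% of tested genes. Replicates 2 and 3 lay close together for Dppa4 (log2 5.67 and 5.46) and Dppa5a (10.45 and 10.30). They lay farther apart for Dppa2 (6.90 and 5.71) and Dppa3 (7.62 and 6.26). Dppa3 was 15.4 times as bright on knockout replicate 1 as on knockout replicate 3, Dppa2 10.50 times, Dppa4 3.87 times and Dppa5a 2.89 times. In log2 units, the range over the knockout arrays was 3.94 for Dppa3, 3.39 for Dppa2, 1.95 for Dppa4 and 1.53 for Dppa5a, while the median tested gene had a range of 0.38. The wild-type arrays spanned 0.63 for Dppa3, 0.26 for Dppa2, 0.61 for Dppa4 and 0.76 for Dppa5a, with a median of 0.25 over tested genes. Dppa3 had the third widest knockout range of all 11897 genes.

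Measured from the wild-type mean of the values as deposited, the members formed pairs on each knockout array. With the floor given below, Dppa4 and Dppa5a still did, while Dppa2 and Dppa3 did not. Dppa3 was higher by 6.39 log2 units on knockout replicate 1, 3.81 on replicate 2 and 2.45 on replicate 3. For Dppa2 the same excess was 5.92, 3.71 and 2.52, so the difference between both genes was -0.17 ± 0.28 (Dppa2 minus Dppa3, SD over 3 arrays), no larger than its spread. Dppa4 exceeded its wild-type mean by 3.30, 1.56 and 1.35 on knockout replicates 1, 2 and 3. Dppa5a followed it closely with 2.87, 1.5 and 1.34, and the difference was 0.17 ± 0.23 (Dppa4 minus Dppa5a).

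Between the pairs the excess differed by more than this spread. Dppa2 exceeded Dppa4, its adjacent partner gene, by 2.61 log2 units on knockout replicate 1, 2.15 on replicate 2 and 1.17 on replicate 3, a mean of 1.98 ± 0.73 (SD, n = 3 arrays). Dppa3 exceeded Dppa5a by 2.31 ± 1.21. Setting values under log2 4 to 4 shortens the excess of genes that are dim in wild type. Dppa2 over Dppa4 then came to 1.22 ± 0.73 and Dppa2 to Dppa3 to -0.71 ± 0.28, so these 2 differences depend on the floor. With the same floor, Dppa4 minus Dppa5a was 0.12 ± 0.23 and Dppa3 exceeded Dppa5a by 2.05 ± 1.21. On knockout replicate 3 the floored excess of Dppa2, 1.71, lay nearer to Dppa4 (1.30) than to Dppa3 (2.19). These are descriptions of members chosen on the same values, and no test was made.

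**Figure D2:**
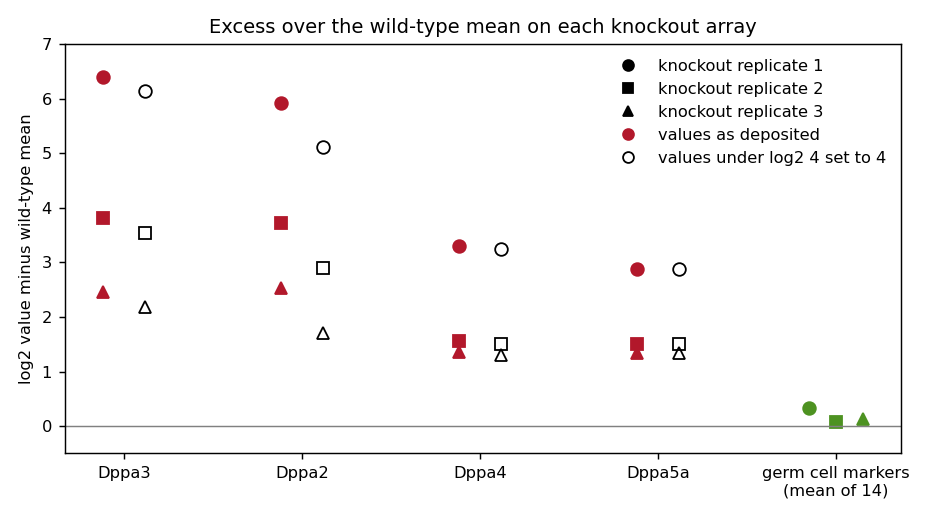
Log2 value of each member on each knockout array minus its wild-type mean (vertical axis), as deposited (red) and with values under log2 4 set to 4 (open), and the same for the mean of 14 germ cell markers (green). Knockout replicate 1 is highest for all 4 genes, at 2.87 to 6.39 log2 units as deposited, and the germ cell markers lie between 0.08 and 0.34.

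Without knockout replicate 1, all 4 differences kept their direction and were smaller. With values under log2 4 set to 4, Dppa2 differed by at least 2.31 log2 units, Dppa3 by 2.87, Dppa4 by 1.41 and Dppa5a by 1.42. With the same floor and all arrays, they differed by 3.24, 3.95, 2.02 and 1.9. Knockout replicates 2 and 3 each lay above the wild-type arrays for all 4 genes. Leaving out the array that lacked Xist signal thus changed the size of the differences and not their direction.

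Germ cell markers were measured beside the members, since germ cells are where the Dppa genes are known in the gonad and each array holds a whole ovary. In bulk tissue, a change in the number of cells of a type and a change in RNA per cell cannot be told apart. The 15 germ cell markers with a probe set summed to intensities of 19464 to 25022 on knockout arrays and 17085 to 20833 on wild-type arrays, with knockout replicate 1 the highest of the 6 arrays and only Tdrd1 under log2 4 on all of them. Their part in the results was not tested. The mean log2 value of the 14 tested markers was 0.34 above its wild-type mean on knockout replicate 1, 0.08 on replicate 2 and 0.13 on replicate 3. That mean runs over markers that were higher and markers that were lower in knockout.

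Single germ cell markers differed in both directions. In the limma fit across all tested probe sets, with Benjamini-Hochberg adjustment over all of them, 0 of 14 markers passed the threshold of 0.05. An unadjusted p under 0.05 was found for 5, a count whose share over all tested genes was not computed. Of all tested probe sets 6.6% passed, and of tested genes 3.55%, with 1.28% higher and 2.27% lower in knockout. Tdrd9, a helicase of the piRNA pathway, differed by 0.96 ± 0.26 log2 units (SE, limma adjusted p = 0.0598), and passed with median centring (limma adjusted p = 0.0322). Piwil2, a PIWI protein, differed by 0.51 ± 0.18 (limma adjusted p = 0.136) and Ddx4, the germ cell helicase Vasa, by 0.43 ± 0.16 (limma adjusted p = 0.161). The brightest Dazl probe set did not pass (0.48 ± 0.19, limma adjusted p = 0.183), and its dimmer probe set rose by 1.34 ± 0.34 (limma adjusted p = 0.0456). Dmc1, the meiotic recombinase, differed by -0.65 ± 0.25 (limma adjusted p = 0.171), the 1 marker of these 5 that was lower in knockout, and Stra8 and Sycp1 differed by -0.17 and -0.08. The median marker difference was 0.20, against 0.02 over all tested genes, and 11 of 14 were above 0, against 6354 of 11897.

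The genes whose profile over the 6 arrays lay nearest to each member were found by the root mean square distance between log2 profiles, each centred on its own mean. For Dppa2 they were Lin28a at 0.42, Cdx2 at 0.44, Sox2 at 0.51, Sall4 at 0.77 and Dlx3 at 0.97 log2 units, where the median distance over 11893 other genes was 2.26. For Dppa3 the same 5 genes came out, with Cdx2 at 0.43, Sox2 at 0.44, Lin28a at 0.57, Sall4 at 0.83 and Dlx3 at 1.09. Dppa2 and Dppa3 lay nearer to each other, at 0.32, than either did to any of these. The 5 genes include the let-7 antagonist Lin28a, the pluripotency factor Sox2, the zinc finger protein Sall4 and the homeobox genes Cdx2 and Dlx3.

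Dppa4 shared Dlx3 with that set, and its other near profiles, like those of Dppa5a, were different genes. For Dppa4 they were Rhox5 at 0.24, Sct at 0.27, Rhox9 at 0.30, Tesc at 0.34 and Dlx3 at 0.34 log2 units, with a median of 1.23 over other genes. For Dppa5a they were Tex19.1 at 0.17, BC048679 at 0.23, Sct at 0.26, Rhox9 at 0.32 and Rhox5 at 0.33, with a median of 1.10. Rhox5 and Rhox9 are X-linked reproductive homeobox genes, Sct encodes the hormone secretin, Tesc encodes tescalcin, and Tex19.1 acts in germ cell transposon control. Dppa4 and Dppa5a lay 0.43 apart, farther than from these neighbours in profile. Values under log2 4 enter the distance as deposited. Dlx3, Tesc and Sox2 were under log2 4 on all 3 wild-type arrays, so they passed the filter through the knockout arrays alone. The distance weighs the size of a difference as well as its shape over arrays, and the 6 arrays form 2 groups, so a short distance mostly says that the group difference and the excess on knockout replicate 1 are alike.

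**Figure D3:**
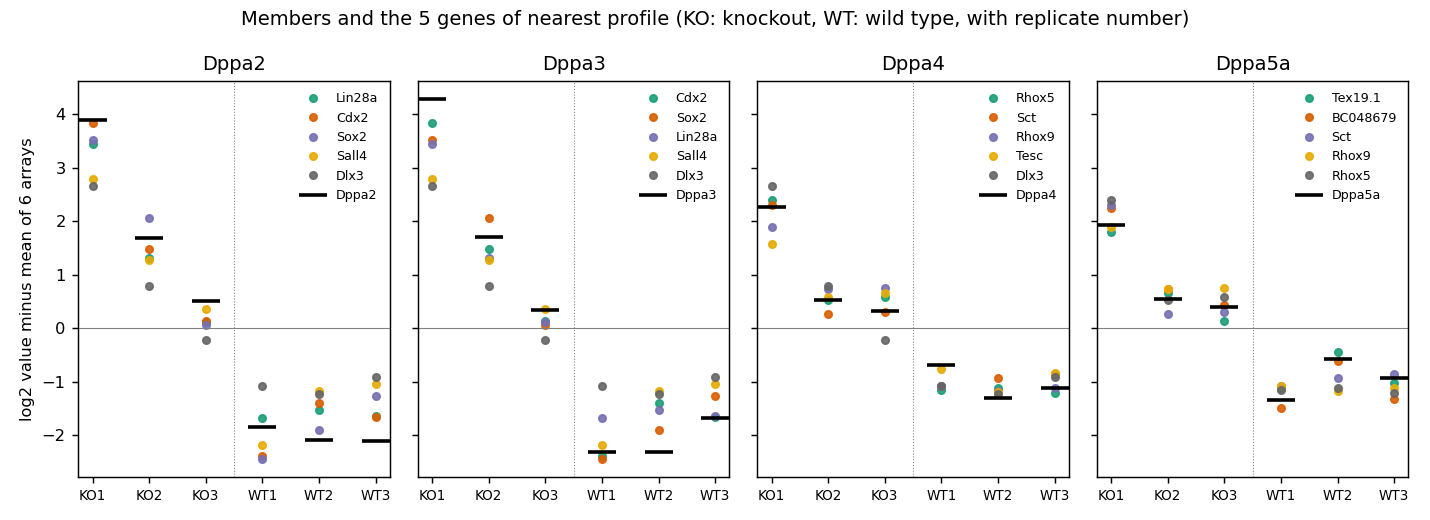
Log2 value minus the mean of 6 arrays (vertical axis) for each member (black bars) and the 5 tested genes nearest to it (points), on knockout (KO) and wild-type (WT) arrays 1 to 3. Dppa2 and Dppa3 share their 5 nearest genes, and Dppa4 and Dppa5a share Rhox5, Rhox9 and Sct.

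Other genes of pluripotent cells and early germ cells were counted next, from a list of 35 genes without the Dppa members. Of these, 33 had a probe set and 22 were tested, and 3 rose and 1 fell in knockout. The risers were Sox2, Lin28a and Sall4, the same genes that lie near Dppa2 in profile. Sox2 passed the filter through the knockout arrays alone, so its passing is itself a product of the difference. Tbx3, a T-box factor, fell by 0.54 ± 0.13 log2 units (SE, limma adjusted p = 0.0422). The median difference was 0.51 against 0.02 over all tested genes. Of the 22 genes, 11 had knockout arrays wholly above the wild-type arrays and 12 were highest on knockout replicate 1 and lowest on knockout replicate 3. Over all tested genes these shares were 12.3% and 13.7%, and 1.28% were called higher and 2.27% lower in knockout. The list was drawn up with earlier results of these data known, so nothing is read from its counts.

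The per-array values show how close these 3 genes came to the Dppa pattern. Lin28a read log2 9.96, 7.83 and 6.63 on knockout replicates 1, 2 and 3, against 4.82, 4.98 and 4.88 on wild-type replicates 1, 2 and 3. Sox2 read 8.05, 6.58 and 4.58 in knockout and 2.08, 2.62 and 3.26 in wild type. Sall4 read 11.55, 10.03 and 9.11 in knockout and 6.57, 7.59 and 7.71 in wild type. Lin28a differed by 3.24 ± 0.63 (SE, limma adjusted p = 0.0127) and Sall4 by 2.94 ± 0.52 (limma adjusted p = 0.00728). Sox2 was at least 5.28-fold higher in knockout (limma adjusted p = 0.00916), a bound, since all 3 wild-type arrays lay under log2 4. Sox2 passed the filter through the knockout arrays alone, so nothing is read from its p. It was not tested when any 1 of them was left out. In each, as in the Dppa genes, knockout replicate 1 was highest and no knockout array reached down to the wild-type range.

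Of the 22 tested genes, 18 were above 0, as were 6354 of all 11897 tested genes. An unadjusted limma p under 0.05 was found for 11, a count whose share over all tested genes was not computed. Sizes and directions varied, and nothing is read from these counts. Alpl, the alkaline phosphatase that stains primordial germ cells, differed by 0.97 ± 0.27 log2 units (limma adjusted p = 0.0671) and Trim71, known as a let-7 target, by 1.97 ± 0.62 (limma adjusted p = 0.0964). Ifitm3, a surface protein of primordial germ cells, differed by -0.15 ± 0.09 (limma adjusted p = 0.39). Klf4, a pluripotency factor, differed by -0.13 ± 0.21 (limma adjusted p = 0.776) through its brightest probe set and by 0.56 ± 0.21 (limma adjusted p = 0.154) through a dimmer one. Prdm14, a factor that specifies primordial germ cells, was not tested, since only knockout replicate 1 reached log2 4, at 6.10 against 2.90 and 2.27 on the other knockout arrays and 1.73 to 2.08 in wild type. Without knockout replicate 1 the median was 0.26, with 2 rising and 0 falling among 21 tested, where 0.525% of all tested genes rose. Without wild-type replicate 1, 0 of 22 passed, and without knockout replicate 3, 8 of 21 rose. In the latter fit 218 of all 21755 tested probe sets rose. With median centring of the arrays, 5 of 23 genes rose and 0 fell, where 871 of all 22006 tested probe sets rose and 809 fell. The fall of Tbx3 was also lost with the replicate block, the stricter filter of log2 5, eBayes without the trend and without any 1 array other than knockout replicate 2.

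Genes that earlier work in mouse embryonic stem cells and lung places downstream of Dppa2 and Dppa4 mostly lay under the filter level. Of 14 listed names, which hold Duxf3 and Dux as separate entries, 7 had a probe set and 2 were tested, and 0 passed. Syce1, a synaptonemal complex protein, differed by 0.45 ± 0.21 log2 units (SE, limma adjusted p = 0.256), and Mael, a piRNA protein, by 0.19 ± 0.11 (limma adjusted p = 0.378). Duxf3, the mouse Dux homeobox gene, read log2 1.58 to 1.96 on knockout arrays against 1.66 to 1.83 on wild-type arrays, and Nkx2-5 read 1.69 to 2.10 on knockout arrays against 1.70 to 2.08 on wild-type arrays, under the filter level on all arrays. Both tested genes are also expressed in meiotic germ cells, and 0 had an unadjusted p under 0.05.

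The DNA methylation machinery, on which Dppa3 acts, showed 0 calls through the brightest probe sets of its 9 tested genes (12 listed, 11 with a probe set), and 0 had an unadjusted p under 0.05. Uhrf1, the hemimethylated DNA reader that Dppa3 binds, read log2 11.57, 11.30 and 10.79 in knockout and 11.15, 11.28 and 11.32 in wild type, a difference of -0.03 ± 0.17 (SE, limma adjusted p = 0.956). Dnmt1, the maintenance methyltransferase, differed by -0.04 ± 0.08 (limma adjusted p = 0.806). The lowest p values belonged to Tet2 (-0.79 ± 0.38, limma adjusted p = 0.275), Tet1 (-0.43 ± 0.27, limma adjusted p = 0.417), both 5-methylcytosine oxidases, and Dnmt3a (-0.12 ± 0.08, limma adjusted p = 0.463), a de novo methyltransferase. Dimmer probe sets gave other values for some of these genes. A dimmer Uhrf1 probe set differed by 0.65 ± 0.22 (limma adjusted p = 0.124). A dimmer Uhrf2 probe set fell by 1.46 ± 0.19 (limma adjusted p = 0.00134) while the brightest differed by 0.01. A dimmer Dnmt3a probe set fell by 0.82 ± 0.20 (limma adjusted p = 0.042), in the direction of the brightest. Further dimmer Dnmt3a probe sets differed by -0.30, -0.33 and -0.54, and a dimmer Tet2 probe set by -1.09 ± 0.29 (limma adjusted p = 0.0501). Tested dimmer probe sets of Dnmt1, Dnmt3b and Trim28 differed by 0.11 to 0.28, none past the threshold. The list median was -0.04.

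Among 9 KH domain relatives of Dppa5a and members of the maternal complex of the egg, 4 were tested, of which 1 rose and 0 fell. Over all tested genes, 1.28% rose and 2.27% fell. Ooep, a KH domain protein of that complex, read log2 6.89, 5.86 and 5.88 on knockout replicates 1, 2 and 3, against 5.14, 4.78 and 4.73 on wild-type replicates 1, 2 and 3. The groups did not overlap, and the difference was 1.32 ± 0.28 (SE, limma adjusted p = 0.0189). Without knockout replicate 1 it was 0.99 and still passed, and it did not pass when any 1 of the wild-type replicates was left out (limma adjusted p = 0.056 to 0.0873). Khdc3, another KH domain member, read log2 2.20 to 2.32 on knockout arrays against 1.76 to 2.11 on wild-type arrays, under the filter level, and Padi6, a further component, differed by 0.43 ± 0.19 (limma adjusted p = 0.236). The list median was 0.31 over its 4 tested genes.

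**Figure D4:**
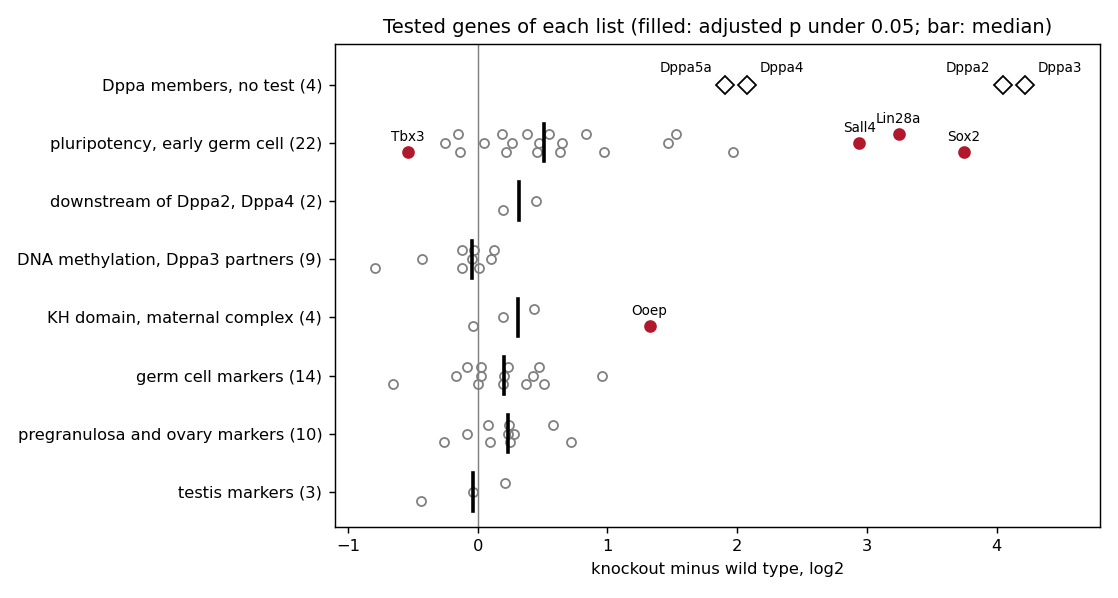
Knockout minus wild type in log2 units (horizontal axis) for the 4 Dppa members (diamonds, no test) and the tested genes of 7 lists (circles), filled where the limma adjusted p is under 0.05, with a bar at each list's median. On the values as deposited, Sox2, Lin28a and Sall4 lie among the Dppa values. Ooep and Tbx3 are the other filled genes, and the germ cell, ovary and testis markers hold none. Sox2 passed the filter through the knockout arrays alone.

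Position in the genome, which played no part in the choice of members, separates the 4 genes into 3 places. Dppa2 and Dppa4 are adjacent protein-coding genes on chromosome 16, Dppa3 lies on chromosome 6 between Gdf3 and Nanog, and Dppa5a lies on chromosome 9 beside Ooep, by the order of genes in RefSeq's assembly GRCm38.p6. The 5 protein-coding genes on each side of each place gave 30 neighbours, of which 24 had a probe set and 16 were tested. Of those, 1 rose, Ooep, and 0 fell, where 1.28% of all tested genes rose and 2.27% fell. The median difference over the tested neighbours was -0.11. Ooep, Nanog and Gdf3 are also in the lists above, so their values are not counted as separate evidence.

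Around Dppa3, the direct neighbours on both sides are pluripotency genes, and both were higher on knockout replicate 1. Nanog, a core pluripotency factor, read log2 7.80, 6.23 and 5.09 on knockout replicates 1, 2 and 3, against 4.94, 4.75 and 5.03 on wild-type replicates 1, 2 and 3, and did not pass (1.47 ± 0.52, SE, limma adjusted p = 0.139). Gdf3, a TGF-beta family ligand, read 5.39, 2.96 and 2.20 in knockout and 2.59, 1.72 and 2.27 in wild type, and was not tested. Slc2a3, a glucose transporter next to Nanog, differed by 0.74 ± 0.26 (limma adjusted p = 0.133), with all knockout arrays above the wild-type arrays. Without knockout replicate 3, both Nanog and Slc2a3 rose, the only 1 of 12 alternatives in which each passed. Without knockout replicate 1, Nanog differed by 0.75 (limma adjusted p = 0.235) and Slc2a3 by 0.43 (limma adjusted p = 0.297). Farther out, Apobec1 (-0.39), Foxj2 (-0.37), C3ar1 (-0.51), Mfap5 (-0.84), Rimklb (-0.15) and Necap1 (0.03) did not pass, with limma adjusted p from 0.23 to 0.933.

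Around the other places no gene but Ooep passed, and several were dim. Beside Dppa2, Morc1, a germ cell factor of transposon silencing, differed by -0.69 ± 0.35 log2 units (SE, limma adjusted p = 0.3), while Dppa2 itself was at least 9.46-fold higher. On the Dppa4 side, Nectin3, a cell adhesion protein, differed by 0.03 ± 0.15 (limma adjusted p = 0.947) and Plcxd2 by 0.12 ± 0.19 (limma adjusted p = 0.786). Cd96, Trat1, Retnlb and Retnla lay under the filter level, with differences of -0.12 to 0.40. Beyond Ooep on the Dppa5a side, the helicase gene Ddx43 differed by -0.12 ± 0.20 (limma adjusted p = 0.79), the DNA sensor gene Cgas by -0.45 ± 0.18 (limma adjusted p = 0.195), Mto1 by 0.23 ± 0.18 (limma adjusted p = 0.543) and Eef1a1 by -0.09 ± 0.09 (limma adjusted p = 0.629). On its other side Gsta2, a glutathione transferase gene, read log2 3.37 ± 0.11 in knockout and 2.52 ± 0.06 in wild type (SD, n = 3 each), under the filter level. Omt2a and Omt2b were at the floor, with differences of 0.07 and 0.02.

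**Figure D5:**
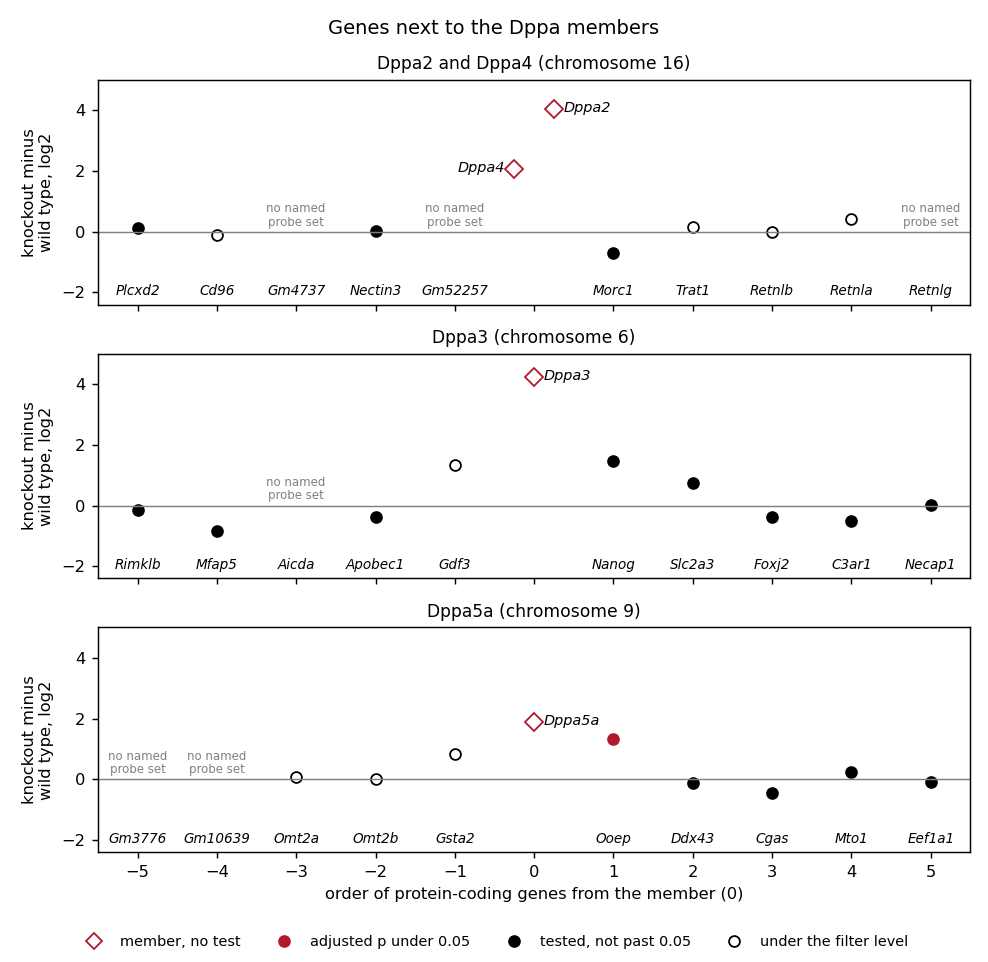
Knockout minus wild type in log2 units (vertical axis) of the 5 protein-coding genes on each side of the members, in gene order (horizontal axis), with members as diamonds. Ooep beside Dppa5a is the 1 neighbour past the threshold, Nanog (1.47) and Gdf3 (1.33) flank Dppa3, and Morc1 beside Dppa2 lies at -0.69.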

How the data were processed

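Each deposited value is a linear intensity of a probe set, which the authors made with GCRMA, per the submitters' processing notes; its version and settings are not given in the sources used here. They carry no detection calls, and the number of arrays limits the precision. Log2 was taken of each value. Of 45101 probe sets, 45037 were left without controls, 34945 named 1 gene, 932 several and 9160 none. Identifiers found 34741 of the 34945 in RefSeq's table of GRCm38.p6, and 0 symbols changed. Knockout was compared with wild type in limma 3.58.1 under R 4.3.3 (lmFit, then eBayes with a trend on intensity and no covariate, 2-sided) over 22040 probe sets at log2 4 or more on at least 3 arrays, with Benjamini-Hochberg adjustment over all of them; the threshold was 0.05, and 1455 passed, 321 higher and 1134 lower in knockout. The steps were tested on simulated data. No pair of arrays was identical. Named are all member probe sets, the 5 genes nearest each member, each list's calls or otherwise its 3 smallest p, and the neighbours. Other non-member names (among them Alpl, Trim71, Ifitm3, Klf4, Prdm14, Dazl, Dmc1, Stra8, Sycp1, Tdrd1, Duxf3, Nkx2-5, Uhrf1, Uhrf2, Dnmt1, Khdc3 and Padi6) were chosen after their values were seen. The members and lists were chosen with earlier results of these data known.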

Additional observations from a re-analysis of the deposited data

How the results depend on the processing

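The 4 member differences kept their direction under all alternatives. Leaving out each array in turn gave 3.12 to 4.81 log2 units for Dppa2, 3.13 to 5.10 for Dppa3, 1.46 to 2.43 for Dppa4 and 1.42 to 2.19 for Dppa5a, on values as deposited. Averaging both Dppa2 probe sets gave 2.24. The number of probe sets called, 1455, was 3282 with no filter, 956 with the stricter filter (log2 5), and 536 to 1399 without single arrays. Median centring put the median difference over tested probe sets at 0.13 log2 units, against 0.00 as deposited, and gave 51.8% of calls higher in knockout, against 22.1% as deposited. The pluripotency list, with 4 calls, had 2 under the stricter filter and 0 to 8 without single arrays. The KH domain list ran from 0 to 1 and the neighbours from 0 to 3 without single arrays, and the neighbours had 2 calls with no filter. Germ cell markers, with 0 calls, had 1 with median centring, no filter, quantile normalization or the replicate block, and 0 to 2 without single arrays. Ovary markers, with 0 calls, had 2 with median centring, 1 with quantile normalization or eBayes without the trend, and 0 to 1 without single arrays. Lists downstream of Dppa2 and Dppa4, of DNA methylation and of testis markers stayed at 0 calls in every alternative, through the brightest probe set of each gene. Same-numbered arrays did not deviate together (correlations of -0.25 to -0.17). Some arrays of different numbers did: knockout 1 with wild type 2 (0.33), knockout 2 with wild type 3 (0.34) and knockout 3 with wild type 1 (0.24). With 3 arrays per group, these correlations cannot settle whether arrays were paired. The main fit used no pairing, and the replicate block gave 1043 called probe sets. Dim values limit Dppa2 and Dppa3 in wild type, where folds are bounds or use the filter level.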
